A study of Mus musculus with 10 samples.

Results

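The T cell receptor complex and its proximal signalling machinery were followed here as 37 genes of the 54337 counted. They were chosen by symbol, for their place in the pathway and not for their level, and all 37 had reads and were tested. The RNA came from CD8 T cells of the tumour-infiltrating kind, which carried a transgenic T cell receptor for the tumour antigen P1A. The cells were activated for 24 h, transduced with a retrovirus, and given 24 h later to Rag1-/- B10D2 mice with tumours of P511, a mastocytoma line that arose from mast cells. On day 7 after transfer they were sorted out of the tumour for RNA sequencing. In the CA-RIT NFAT1 group (4 libraries, numbered 2, 4, 9 and 10) the vector carried a constitutively active NFAT1 that cannot pair with AP-1. In the NFAT5 group (3 libraries, 1, 5 and 8) it carried NFAT5, a transcription factor of the osmotic stress response. The eGFP control group (3 libraries, 3, 6 and 7) received the vector with eGFP alone. All 3 groups share the receptor transgene, the in vitro activation, the transduction and the tumour. The labels give C57BL/6 as the strain of every sample and do not give how many mice the libraries represent; the p-values therefore reflect library-to-library spread alone. The hosts lack Rag1 and so have no T or B cells of their own, while their NK and myeloid cells remain.

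The T cell receptor has no enzyme of its own. When it meets its antigen, the kinase Lck, brought by the co-receptor CD8, phosphorylates the tails of the CD3 and zeta chains. The kinase ZAP-70 docks there and phosphorylates the adaptors LAT and SLP-76, which assemble the enzymes that release calcium, activate Ras and protein kinase C, and so engage NFAT, AP-1 and NF-kB. Further proteins, among them CSK and the UBASH3 phosphatases, restrain these steps. In tumours, CD8 T cells that meet antigen without pause are known to enter exhaustion, a state of high inhibitory receptors and poor function.

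Of the 10 libraries, 8 held 18.8 to 36.6 M estimated reads and the RNA of CD8 T cells, and the results rest on these. Their 6 CD8 T cell markers (the receptor constant regions Trac, Trbc1 and Trbc2 with Cd8a, Cd8b1 and Cd3e) summed to 25798 to 30283 CPM in CA-RIT NFAT1 2, 4 and 9, 24178 to 25576 CPM in NFAT5, and 30006 to 37161 CPM in eGFP control 3 and 6. CPM scale the reads of a gene to the reads on all genes of its library. The same sum was 68.4 CPM in CA-RIT NFAT1 10, where markers of mast cells and P511 summed to 5866 CPM, against 450.3 to 1497 CPM in the 8 libraries. The library eGFP control 7 held 51112 reads in all. Both were left out, and values with all 10 libraries are given for the receptor chains and some other members. The vector genes followed the labels for NFAT5: Nfat5 had 87.0, 81.6 and 48.0 CPM in NFAT5 1, 5 and 8, against 1.12 and 6.88 CPM in eGFP control 3 and 6. Nfatc2, which encodes NFAT1, had 88.8, 63.5, 30.0 and 3.39 CPM in CA-RIT NFAT1 2, 4, 9 and 10, and 4.00 and 47.3 CPM in eGFP control 3 and 6, so that CA-RIT NFAT1 and eGFP libraries overlapped. Reads of the vector and of the cell's own gene cannot be told apart in these counts.

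Also eGFP control 3 stood apart, although it is a CD8 T cell library by its markers. It held the most reads of the 8 libraries, 36.6 M, but on the fewest genes. Reads fell on 13186 genes in it, against 15276 to 17255 in the other 7 libraries. It was the lowest of the 8 libraries for 18 of the 37 members and the highest for 8. Among the 9298 genes averaging 5 CPM or more it was the lowest for 43.1% and the highest for 25.4%. Its sum of 4 NK cell markers, nearly all from Nkg7, which CD8 T cells also express, was 7761 CPM, against 2909 to 4024 CPM in the other 7 libraries. Mast cell and P511 markers summed to 1497 CPM there, of which Srgn, a gene of many blood cells, made 1234 CPM. Of the other markers of that list, Cma1 was at 146 CPM, against 17.1 to 168 CPM in the other 7 libraries, and Cpa3 with 66.1 CPM, Trap1a with 24.9 CPM and Mcpt8 with 14.8 CPM were highest of the 8 in it. Kit with 4.41 CPM and Gata2 with 6.96 CPM were lowest of the 8 in it. Hdc, Ms4a2 and Fcer1a were at 0 reads, as they were in CA-RIT NFAT1 10. Their part in the results was not tested. Since only 2 eGFP libraries remain and both comparisons with eGFP share them, the fold changes against eGFP that the results turn on are given with and without eGFP control 3.

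On a scale that allows for transcript length (TPM), Cd8b1, Cd3e, Lck and Cd3g led the pathway. Median TPM over the 8 libraries were 890.1 for Cd8b1, 889 for Cd3e, 855 for Lck, 740.0 for Cd3g, 565 for Cd3d, 553 for Lat and 529 for Cd2. The other co-receptor chain, Cd8a, stood at 259 and the zeta chain, Cd247, at 257, below Sh2d2a at 330.2 and Skap1 at 273. Cd8b1 ran from 718 to 1130.1 TPM, Cd3e from 537 to 1260.1 TPM and Lck from 679 to 929.7 TPM, so that the ranges of these 3 overlapped and their order is not resolved. Other enzymes stood far below the kinase Lck, with medians of 137 TPM for Zap70, 66.3 TPM for Vav1, 14.0 TPM for Plcg1 and 14.6 TPM for Rasgrp1. At the bottom were Malt1 with 9.48 TPM, Pag1 with 2.50 TPM, Sos1 with 1.31 TPM and Trat1 with 0.549 TPM, where Trat1 had 1 to 63 reads per library.

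**Figure D1:**
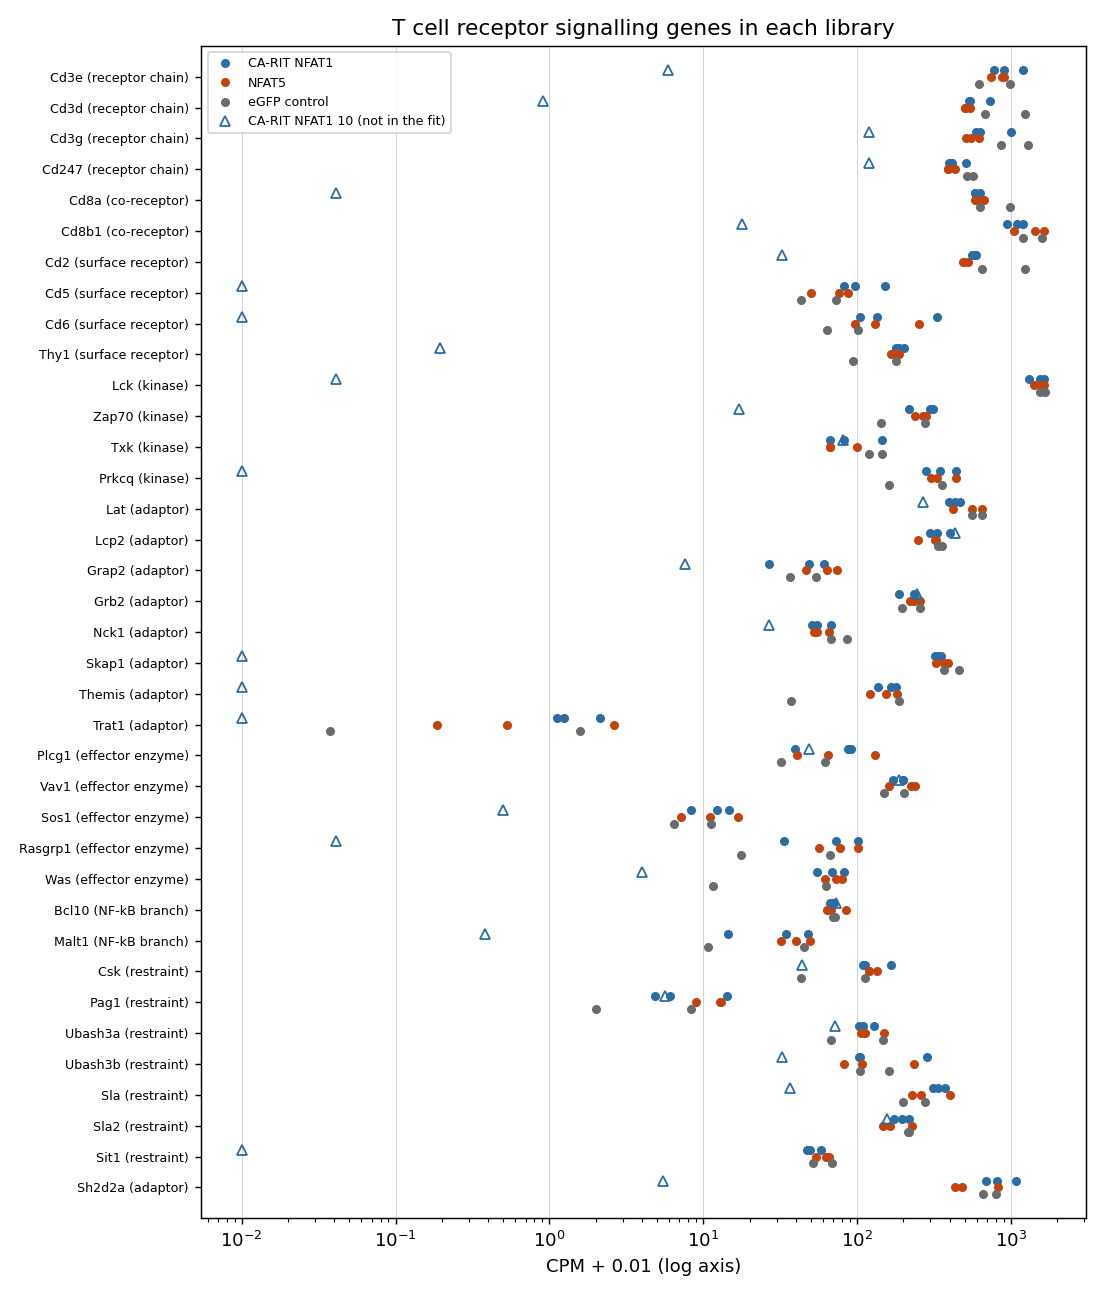
Level of each of the 37 genes in each library, as CPM plus 0.01 on a log axis, with 1 point per library and a row per gene. In the 8 libraries of the fit the points of most genes lie close together beside the distance between genes, with Trat1 spread from 0.0274 to 2.61 CPM, while the triangles of CA-RIT NFAT1 10 lie at 0.0308 CPM for Cd8a and Lck and at 434 CPM for Lcp2.

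The receptor chains come first. Cd3e, Cd3d and Cd3g encode the CD3 subunits that pair with the receptor and carry its signal, and they lie side by side on chromosome 9 of GRCm38.p6: Cd3g at chr9:44969572-44980431 on the minus strand, Cd3d at chr9:44981786-44987339 on the plus strand and Cd3e at chr9:44998740-45009627 on the minus strand. The annotated starts of Cd3g and Cd3d lie 1355 bases apart and those of Cd3d and Cd3e 27841 bases apart. Cd247, which encodes the zeta chain with its several phosphorylation motifs, lies elsewhere, at chr1:165788681-165877277 on the plus strand. Since the vectors carry NFAT proteins and these genes encode the receptor's signalling chains, their promoter windows are shown, 250 bases before to 50 bases after the RefSeq start (GRCm38.p6), each 5′ to 3′ on its gene's strand. Capitals mark GGAAA, the core that NFAT proteins bind, and its reverse complement TTTCC.
Cd3e, chr9:45009562-45009861, strand -: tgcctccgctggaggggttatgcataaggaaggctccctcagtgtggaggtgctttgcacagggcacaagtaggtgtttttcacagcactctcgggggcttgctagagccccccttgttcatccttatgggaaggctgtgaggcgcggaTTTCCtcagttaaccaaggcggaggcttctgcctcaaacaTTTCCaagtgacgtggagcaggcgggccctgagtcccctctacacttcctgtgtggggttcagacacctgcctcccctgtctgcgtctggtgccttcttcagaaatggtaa
Cd3d, chr9:44981536-44981835, strand +: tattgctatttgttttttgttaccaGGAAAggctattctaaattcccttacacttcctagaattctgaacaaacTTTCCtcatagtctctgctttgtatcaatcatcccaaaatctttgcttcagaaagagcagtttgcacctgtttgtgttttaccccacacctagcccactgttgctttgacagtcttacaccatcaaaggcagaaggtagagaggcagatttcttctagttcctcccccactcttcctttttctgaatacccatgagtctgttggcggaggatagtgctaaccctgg
Cd3g, chr9:44980382-44980681, strand -: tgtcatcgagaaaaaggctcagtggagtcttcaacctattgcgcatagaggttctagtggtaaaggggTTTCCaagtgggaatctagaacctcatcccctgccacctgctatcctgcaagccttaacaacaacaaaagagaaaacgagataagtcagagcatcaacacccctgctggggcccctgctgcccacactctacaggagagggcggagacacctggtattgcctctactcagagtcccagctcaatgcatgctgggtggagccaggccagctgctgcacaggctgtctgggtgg
Cd247, chr1:165788431-165788730, strand +: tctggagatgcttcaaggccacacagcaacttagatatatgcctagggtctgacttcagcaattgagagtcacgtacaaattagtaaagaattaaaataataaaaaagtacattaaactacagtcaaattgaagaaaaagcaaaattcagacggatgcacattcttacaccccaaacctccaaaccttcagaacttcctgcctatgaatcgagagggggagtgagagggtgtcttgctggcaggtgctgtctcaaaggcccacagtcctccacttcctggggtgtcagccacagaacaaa
The window of Cd3e holds 2 matches, that of Cd3d 2, that of Cd3g 1 and that of Cd247 0. Of 32851 windows of 300 bases in the RefSeq table, 61.3% hold the letters on either strand. RefSeq windows were found for 28 of the 37 genes, 37 windows in all, of which 75.7% hold them. A match is a description of the sequence, and its absence says only that these letters are not in this window.

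Cd3d had 734, 540.4 and 533 CPM in CA-RIT NFAT1 2, 4 and 9, 542, 501 and 501 CPM in NFAT5 1, 5 and 8, and 1229 and 681 CPM in eGFP control 3 and 6. Cd3g had 996, 597 and 634 CPM in CA-RIT NFAT1, 620.1, 554 and 508 CPM in NFAT5, and 1284 and 862 CPM in eGFP control 3 and 6. For both genes eGFP control 3 was the highest library, all NFAT5 libraries lay below both eGFP libraries, and CA-RIT NFAT1 2 lay between the 2 controls. Cd247 had 514, 415 and 398 CPM in CA-RIT NFAT1, 434, 392 and 390.2 CPM in NFAT5, and 518 and 567 CPM in eGFP control 3 and 6. Here the pair of eGFP libraries stood close together, and all 6 libraries of the other groups lay below them. Cd3e followed none of this: it had 1197, 908 and 781 CPM in CA-RIT NFAT1, 906, 874 and 745 CPM in NFAT5, and 623 and 989 CPM in eGFP control 3 and 6. For Cd3e the groups overlapped throughout, and eGFP control 3 was the lowest library.

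In NFAT5 against eGFP the log2 fold changes were -1.06 ± 0.28 for Cd3g, -1.02 ± 0.29 for Cd3d, -0.53 ± 0.18 for Cd247 and -0.03 ± 0.25 for Cd3e (± SE, 3 against 2 libraries). None passed the threshold, with adjusted p of 0.654 for Cd3g, Cd3d and Cd247 and 0.975 for Cd3e in edgeR's quasi-likelihood test over 14473 genes. Without eGFP control 3 the values were -0.65 for Cd3g, -0.43 for Cd3d, -0.51 for Cd247 and -0.26 for Cd3e, each with an adjusted p of 1. All 10 libraries gave -0.63, -0.70, -0.25 and 0.32 in that order. With eGFP control 3 as the only control, Cd3g at -1.36 (adjusted p = 0.00977) and Cd3d at -1.42 (adjusted p = 0.00317) passed the threshold in the same test, in which the spread comes from the NFAT5 and CA-RIT NFAT1 libraries alone. The sizes for Cd3d and Cd3g thus rest in good part on 1 control library, whereas Cd247 was at -0.52 with eGFP control 3 alone and at -0.51 with eGFP control 6 alone.

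Against the same eGFP libraries, the log2 fold changes in CA-RIT NFAT1 were -0.81 ± 0.29 for Cd3d, -0.68 ± 0.28 for Cd3g, -0.42 ± 0.18 for Cd247 and 0.14 ± 0.25 for Cd3e, with edgeR adjusted p of 0.679 for the first 3 and 0.87 for Cd3e. Leaving out eGFP control 3, they were -0.23, -0.27, -0.41 and -0.09 in the same order of genes, and with all 10 libraries -0.91, -0.59, -0.45 and 0.08. Between CA-RIT NFAT1 and NFAT5, a comparison that uses no control library, all 4 chains lay on the higher side, from 0.11 ± 0.16 for Cd247 to 0.38 ± 0.26 for Cd3g, with an edgeR adjusted p of 1 for each; with all 10 libraries 3 of the 4 lay on the lower side. In bulk RNA, fewer cells of a type and less RNA per cell cannot be told apart in any of these values.

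The chains also stood in other proportions in eGFP control 3. Its ratio of Cd3d to Cd3e, in TPM, was 1.71, against 0.560 to 0.671 in the other 7 libraries. Its ratio of Cd3g to Cd3e was 2.15, against 0.718 to 0.992 elsewhere. In eGFP control 6 these ratios were 0.671 and 0.992, the highest among the other 7. The ratio of Cd247 to Cd3e was 0.478 in eGFP control 3, 0.339 in eGFP control 6 and 0.252 to 0.320 in the 6 libraries of the NFAT vectors.

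**Figure D2:**
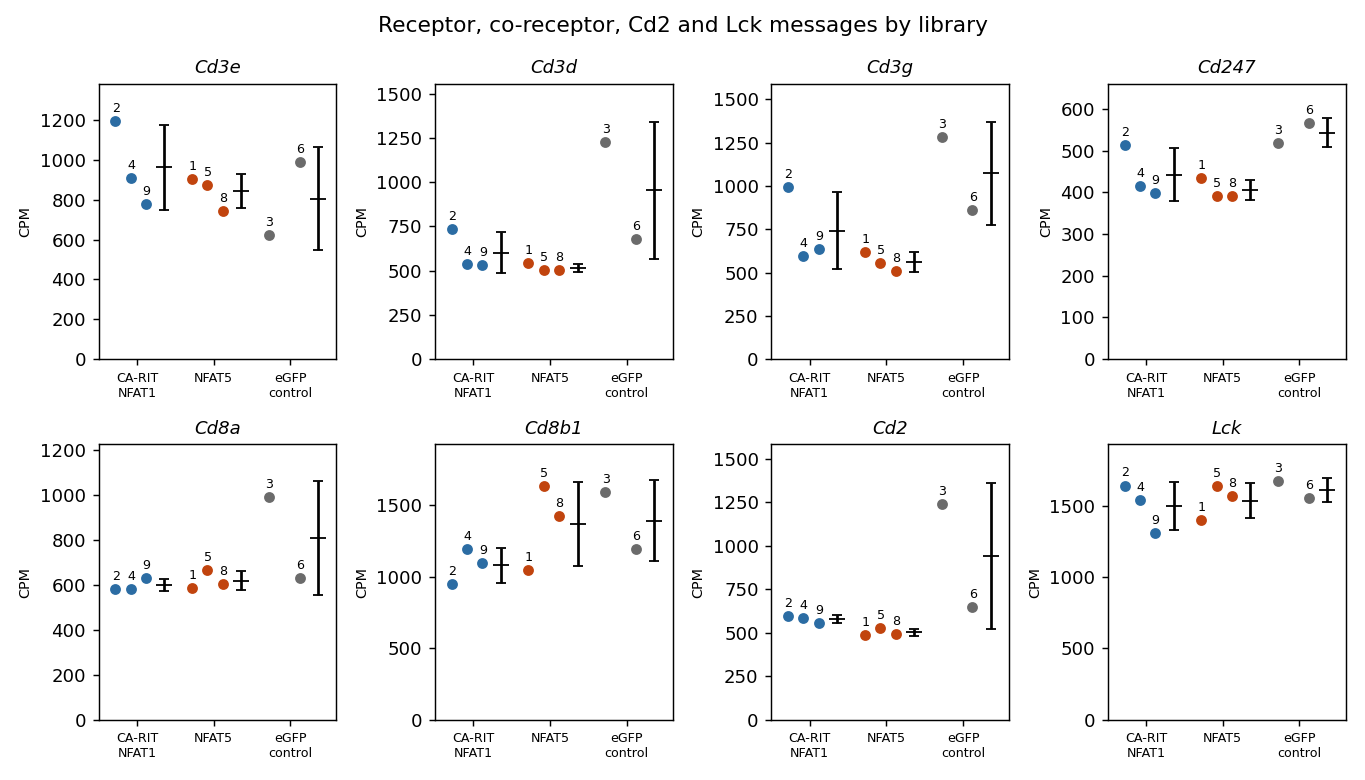
CPM of the receptor chains, the co-receptor, Cd2 and Lck in each of 8 libraries (numbers are library numbers), with the mean and SD of each group as a bar beside its points; y axes start at 0. Cd3d, Cd3g, Cd8a and Cd2 are highest in eGFP control 3 with eGFP control 6 much nearer the other groups, Cd247 is lower in all 6 libraries of the NFAT vectors than in either control, and Lck is nearly level.

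The co-receptor is a pair of alpha and beta chains that binds class I MHC and brings Lck. Cd8a, the alpha chain, had 582, 583 and 629 CPM in CA-RIT NFAT1 2, 4 and 9, 585, 665 and 605 CPM in NFAT5 1, 5 and 8, and 988 and 629 CPM in eGFP control 3 and 6. Leaving out eGFP control 3, the 7 libraries lay within a factor of 1.14 of each other, and only eGFP control 3 stood away. Cd8b1, the beta chain, had 946, 1195 and 1095 CPM in CA-RIT NFAT1, 1048, 1633 and 1426 CPM in NFAT5, and 1592 and 1191 CPM in eGFP control 3 and 6, with all groups overlapping. The log2 fold change of Cd8a was -0.51 ± 0.25 in NFAT5 against eGFP and -0.57 ± 0.25 in CA-RIT NFAT1 against eGFP, and -0.05 and -0.11 without eGFP control 3. Cd8b1 was at -0.14 ± 0.28 and -0.50 ± 0.27, and at 0.18 and -0.18 without it, so its direction in NFAT5 turned with that library. Between CA-RIT NFAT1 and NFAT5, Cd8a was at -0.07 ± 0.22 and Cd8b1 at -0.36 ± 0.25. None of these passed in edgeR, with adjusted p of at least 0.654.

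Cd2, an adhesion receptor that aids signalling, was, like Cd3d and Cd3g, highest in eGFP control 3. It had 595, 586 and 555 CPM in CA-RIT NFAT1 2, 4 and 9, 489, 526 and 495 CPM in NFAT5, and 1240 and 647 CPM in eGFP control 3 and 6. The 3 groups did not overlap for Cd2: NFAT5 was lowest, CA-RIT NFAT1 next and eGFP highest. The log2 fold changes were -1.03 ± 0.29 in NFAT5 against eGFP, -0.85 ± 0.29 in CA-RIT NFAT1 against eGFP and 0.18 ± 0.26 in CA-RIT NFAT1 against NFAT5, and none passed, with edgeR adjusted p of 0.654, 0.679 and 1. Without eGFP control 3 the first 2 were -0.39 and -0.20.

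Cd5 and Cd6 encode related scavenger-type receptors that dampen receptor signals, and both were highest in CA-RIT NFAT1 2. Cd5, whose level is known to follow the strength of receptor signalling in thymocytes, had 151, 96.3 and 81.8 CPM in CA-RIT NFAT1, 87.3, 50.1 and 76.1 CPM in NFAT5, and 43.5 and 73.2 CPM in eGFP control 3 and 6. All 3 CA-RIT NFAT1 libraries lay above both eGFP libraries, and they overlapped those of NFAT5. Its log2 fold change was 0.79 ± 0.36 in CA-RIT NFAT1 against eGFP (edgeR adjusted p = 0.679, and 0.53 without eGFP control 3), 0.61 ± 0.31 in CA-RIT NFAT1 against NFAT5 (edgeR adjusted p = 1) and 0.19 ± 0.35 in NFAT5 against eGFP. The last turned to -0.07 without eGFP control 3, and the value between the vectors was 0.33 without CA-RIT NFAT1 2. Cd6 had 332, 135 and 105 CPM in CA-RIT NFAT1, 254, 97.1 and 131 CPM in NFAT5, and 63.5 and 101 CPM in eGFP control 3 and 6. The values of NFAT5 1 and CA-RIT NFAT1 2 stood well above the other 6 libraries, and the same pair held the highest values of Ubash3b, 233 and 285 CPM, against 82.3 to 161 CPM in the others. The log2 fold change of Cd6 was 1.08 ± 0.56 in CA-RIT NFAT1 against eGFP and 0.86 ± 0.55 in NFAT5 against eGFP, with edgeR adjusted p of 0.679 and 0.671, and 0.85 and 0.63 without eGFP control 3. It was at 0.47 in CA-RIT NFAT1 without CA-RIT NFAT1 2 and at 0.41 in NFAT5 without NFAT5 1. Thy1, a surface glycoprotein of T cells, ran from 167 to 201 CPM in 7 libraries and was 94.3 CPM in eGFP control 3.

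Among the kinases, Lck was the steadiest. Lck had 1643, 1543 and 1310.1 CPM in CA-RIT NFAT1 2, 4 and 9, 1404, 1637 and 1571 CPM in NFAT5 1, 5 and 8, and 1673 and 1555 CPM in eGFP control 3 and 6. Its coefficient of variation over the 8 libraries was 8.14%, lower than that of all but 0.860% of genes averaging 5 CPM or more, whose median was 30.5%. Its log2 fold change was -0.18 ± 0.20 in NFAT5 against eGFP, -0.24 ± 0.20 in CA-RIT NFAT1 against eGFP and -0.06 ± 0.18 in CA-RIT NFAT1 against NFAT5, and -0.04 and -0.10 against eGFP without eGFP control 3. Zap70 had 313, 296 and 217 CPM in CA-RIT NFAT1, 281, 267 and 238 CPM in NFAT5, and 144 and 278 CPM in eGFP control 3 and 6. Only eGFP control 3 lay outside the range of the others, and the log2 fold changes of 0.23 ± 0.28 in NFAT5 and 0.28 ± 0.28 in CA-RIT NFAT1 against eGFP turned to -0.11 and -0.06 without it. The ratio of Lck to Zap70 in TPM was 11.3 in eGFP control 3 and 5.24 to 7.05 in the other 7 libraries. Over the 8 libraries neither kinase had an edgeR adjusted p below 0.728. With eGFP control 3 as the only control Zap70 was at 0.70 in NFAT5 and 0.76 in CA-RIT NFAT1, with edgeR adjusted p of 0.107 and 0.0865.

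Txk, a Tec-family kinase that acts on phospholipase C, had 146, 82.2 and 66.5 CPM in CA-RIT NFAT1, 99.6, 66.3 and 66.6 CPM in NFAT5, and 119.9 and 146 CPM in eGFP control 3 and 6. All NFAT5 libraries lay below both eGFP libraries, whereas CA-RIT NFAT1 2 lay level with eGFP control 6. Its log2 fold change in NFAT5 against eGFP, -0.89 ± 0.34, was nearly the same without eGFP control 3, at -0.94, and did not pass (edgeR adjusted p of 0.654 and 1). In CA-RIT NFAT1 it was -0.56 ± 0.34 against eGFP and 0.32 ± 0.31 against NFAT5. Prkcq, the protein kinase C of the T cell synapse, had 439.8, 347 and 279.7 CPM in CA-RIT NFAT1, 438, 330.3 and 302 CPM in NFAT5, and 160.1 and 358 CPM in eGFP control 3 and 6, where again eGFP control 3 alone stood outside the rest.

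Of the adaptors, Lat was low in CA-RIT NFAT1. Lat encodes the membrane scaffold on which the signalling complex forms. It had 435, 464 and 393 CPM in CA-RIT NFAT1 2, 4 and 9, 422, 558 and 648 CPM in NFAT5 1, 5 and 8, and 645 and 560.4 CPM in eGFP control 3 and 6. All CA-RIT NFAT1 libraries lay below both eGFP libraries, and NFAT5 1 lay with them. The log2 fold change was -0.61 ± 0.24 in CA-RIT NFAT1 against eGFP (edgeR adjusted p = 0.679, and -0.42 without eGFP control 3), -0.35 ± 0.22 in CA-RIT NFAT1 against NFAT5 (edgeR adjusted p = 1) and -0.26 ± 0.24 in NFAT5 against eGFP, where it was -0.07 without eGFP control 3 and 0.10 with all 10 libraries.

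Sh2d2a, an adaptor that binds Lck and is known to be induced by activation, had 1076, 685 and 812 CPM in CA-RIT NFAT1, 821, 430.2 and 484 CPM in NFAT5, and 803 and 654 CPM in eGFP control 3 and 6. NFAT5 5 and NFAT5 8 were the lowest of the 8 libraries, and NFAT5 1 lay within the other groups. The log2 fold change of 0.55 ± 0.28 in CA-RIT NFAT1 against NFAT5 was among the largest between these groups (edgeR adjusted p = 1), and that of NFAT5 against eGFP was -0.46 ± 0.31, and -0.21 without eGFP control 3. Grap2, the adaptor GADS that joins SLP-76 to LAT, had 48.9, 60.8 and 26.7 CPM in CA-RIT NFAT1 and 46.9, 73.8 and 63.5 CPM in NFAT5, a log2 fold change of -0.45 ± 0.35 with overlapping libraries.

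The other adaptors followed no common pattern. Lcp2, which encodes SLP-76, ran from 249 to 399 CPM and Skap1, a partner in adhesion signalling, from 323 to 461 CPM. Grb2, the adaptor that brings SOS1 to the membrane, ran from 187 to 256 CPM. Nck1, which links the receptor to actin, had 66.1, 54.6 and 52.3 CPM in NFAT5 and 86.1 and 67.5 CPM in eGFP control 3 and 6. Themis, best known for T cell development, ran from 122 to 188 CPM in 7 libraries and was 37.0 CPM in eGFP control 3. Trat1, a transmembrane adaptor, ran from 0.0274 to 2.61 CPM and was too sparse to compare.

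The 5 effectors had log2 fold changes on the higher side in both comparisons with eGFP, except Vav1 at 0.00 in CA-RIT NFAT1. With a trend with transcript length removed, Plcg1, Sos1 and Vav1 lay on the lower side in NFAT5 (-0.14, -0.49 and -0.38). They did so in CA-RIT NFAT1 too (-0.34, -0.69 and -0.60). Each of the 5 was lowest in eGFP control 3. Was, the actin regulator mutated in Wiskott-Aldrich syndrome, had 68.5, 82.4 and 54.7 CPM in CA-RIT NFAT1, 61.6, 80.2 and 73.0 CPM in NFAT5, and 11.6 and 63.0 CPM in eGFP control 3 and 6. In NFAT5 against eGFP it was at a log2 fold change of 0.88 ± 0.57 (edgeR adjusted p = 0.671), 0.16 without eGFP control 3 and 2.46 with that library as the only control. Rasgrp1, the calcium-responsive Ras activator, was at 0.81 ± 0.60, Plcg1, the phospholipase that makes the calcium signal, at 0.64 ± 0.55, Sos1, another Ras activator, at 0.30 ± 0.53 and Vav1, which activates Rac, at 0.15 ± 0.23 in the same comparison. These 4 lay between 0.02 and 0.29 without eGFP control 3. Between CA-RIT NFAT1 and NFAT5 the 5 effectors lay between -0.18 and 0.00.

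Bcl10 and Malt1 form the complex that leads to NF-kB. Bcl10 was nearly level, from 63.6 to 84.6 CPM, with a coefficient of variation of 8.84%. Malt1 had 47.7, 34.4 and 14.5 CPM in CA-RIT NFAT1, 49.7, 32.0 and 40.3 CPM in NFAT5, and 10.8 and 45.4 CPM in eGFP control 3 and 6, a spread within groups as wide as that between them.

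The genes that restrain the pathway showed no common direction. Csk, the kinase that silences Lck, had 113, 165 and 109 CPM in CA-RIT NFAT1, 119, 134 and 119.9 CPM in NFAT5, and 43.1 and 113 CPM in eGFP control 3 and 6. Pag1, the membrane anchor of CSK, had 6.06, 14.2 and 4.82 CPM in CA-RIT NFAT1, 13.0, 12.9 and 8.92 CPM in NFAT5, and 2.00 and 8.30 CPM in eGFP control 3 and 6. For both genes the NFAT5 libraries lay above both eGFP libraries, narrowly above eGFP control 6. In NFAT5 against eGFP Csk was at 0.59 ± 0.38 and Pag1 at 1.10 ± 0.75 (edgeR adjusted p of 0.67 and 0.679), and without eGFP control 3 at 0.11 and 0.46. Csk was at 0.63 ± 0.38 in CA-RIT NFAT1 against eGFP, and at 0.16 without that library.

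Sla, whose protein SLAP promotes loss of receptor chains, had 373, 313 and 338 CPM in CA-RIT NFAT1, 402, 259 and 229 CPM in NFAT5, and 199 and 278 CPM in eGFP control 3 and 6. All CA-RIT NFAT1 libraries lay above both eGFP libraries, with a log2 fold change of 0.40 ± 0.26 (edgeR adjusted p = 0.687). It was 0.25 without eGFP control 3 and -0.06 with a trend with transcript length removed. Its relative Sla2 ran from 147 to 228 CPM, and Ubash3a, a phosphatase-family protein that limits receptor signals, from 67.7 to 150.1 CPM, lowest in eGFP control 3. Sit1, a transmembrane adaptor that dampens signalling, had 47.6, 58.1 and 49.7 CPM in CA-RIT NFAT1 and 54.4, 65.7 and 62.6 CPM in NFAT5, with a log2 fold change of -0.25 ± 0.23.

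Over the whole set, no gene of the pathway passed the test in any comparison over the 8 libraries, which at this spread between libraries does not show that their levels were alike. In NFAT5 against eGFP, edgeR called 0 of 37 members and 0 of 14473 genes (0%) at an adjusted p below 0.05. DESeq2 called 0 members and 104 of 12999 genes (0.800%), and limma voom called 0 genes. At an unadjusted edgeR p below 0.05 there were 5 members (13.5%; Cd3g, Cd2, Cd3d, Cd247 and Txk, all lower in NFAT5), against 7.26% of all genes, 4.01% on the lower and 3.25% on the higher side. Of the 36 members with a mean of at least 5 CPM, 9 did not overlap between NFAT5 and eGFP libraries (25.0%), 2 on the higher side and 7 on the lower, against 23.9% of 9298 genes (14.9% higher and 8.98% lower). The share without overlap was thus near that of all genes, and its direction leaned to the lower side. The median log2 fold change was -0.02 over the members and 0.08 over all genes, and the median size without regard to sign was 0.37 over members and 0.56 over all genes.

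The other comparison with eGFP, that of CA-RIT NFAT1, gave the same count: edgeR called 0 members and 0 genes (0%), DESeq2 called 0 members and 60 of 14118 genes (0.425%), and limma voom called 0 genes. At an unadjusted edgeR p below 0.05 there were 6 members (16.2%; Cd2, Cd3d, Lat, Cd3g, Cd8a and Cd247, all lower in CA-RIT NFAT1), against 6.44% of all genes, 3.16% on the lower and 3.28% on the higher side. The libraries did not overlap for 8 of 36 members (22.2%), Cd5, Cd6 and Sla on the higher side and Cd2, Cd247, Cd8a, Lat and Skap1 on the lower, against 21.5% of all genes (14.4% higher and 7.12% lower). This comparison shares its 2 controls with that of NFAT5, so the 2 lists are not independent.

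With eGFP control 3 as the only control, edgeR called 7 members in NFAT5 (Cd2, Cd3d, Cd3g and Cd8a lower, Csk, Themis and Was higher) and 8 in CA-RIT NFAT1 (the same 7 and Thy1, higher), among 3294 and 3410 of 16011 genes. These were 18.9% and 21.6% of members, against 20.6% and 21.3% of all genes, so the shares were near the background. For all genes 15.4% and 15.9% were higher and 5.14% and 5.37% lower. The control arm is then 1 library, assumed to vary like the libraries of the other groups. Without eGFP control 3, with eGFP control 6 as the only control, it called 0 members and 0 genes in both. For CA-RIT NFAT1 against NFAT5, where no control enters, edgeR called 0 members and 0 genes (0%), and 0 members and 163 genes (1.13%) had an unadjusted p below 0.05. DESeq2 called 0 members and 1 of 14399 genes (0.00694%), and limma voom called 0 genes. Only Cd2 did not overlap, 1 of 36 members (2.78%), against 5.61% of all genes (3.56% higher and 2.05% lower). The median log2 fold change was 0.00 over the members and 0.00 over all genes, with a median size of 0.17 over members and 0.24 over all genes.

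**Figure D3:**
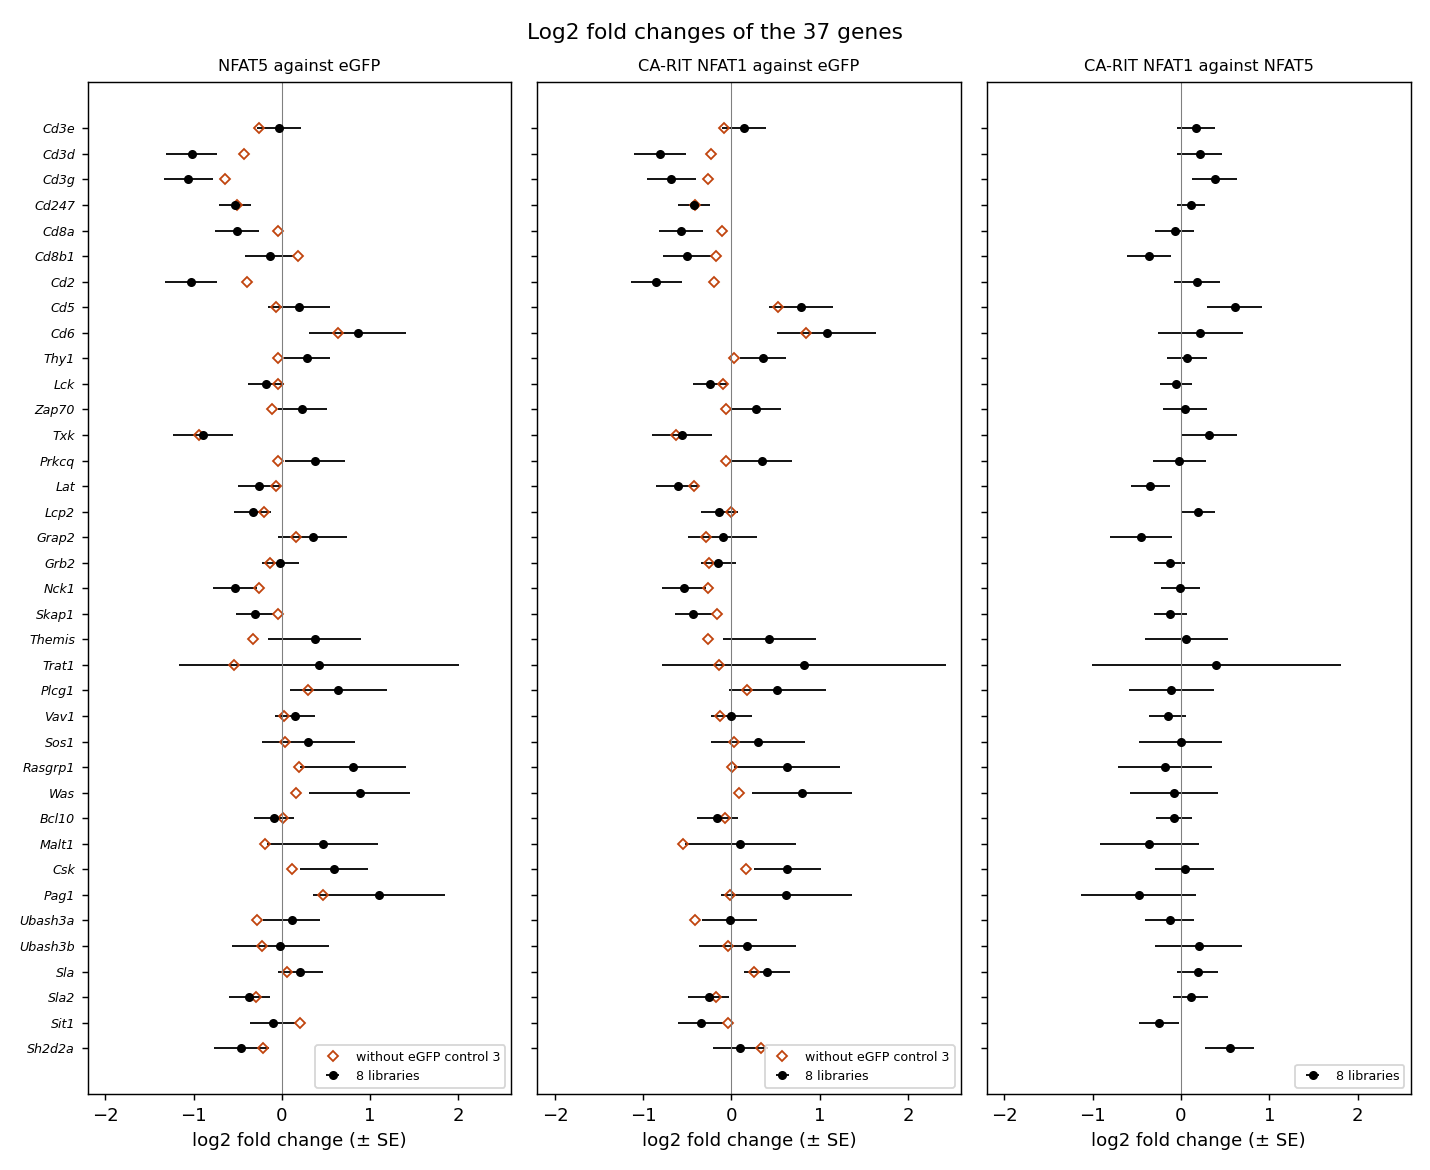
Log2 fold change of each of the 37 genes in the 3 comparisons, as black points with SE bars from 8 libraries and open diamonds for the value without eGFP control 3. Against eGFP, Cd3d, Cd3g, Cd2 and Cd8a lie left of 0 and most diamonds lie nearer to 0 than the points; between CA-RIT NFAT1 and NFAT5 all values lie between -0.48 and 0.61.

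The median spread of the members over libraries was below that of all genes, which were not matched to the members by level. Their median coefficient of variation was 25.4% over 8 libraries, against 30.5% over all genes averaging 5 CPM or more, and 22 of 36 members lay below that median. Without eGFP control 3 the medians were 16.1% and 22.4%, and 24 of 36 members lay below. Over those 7 libraries Cd8a had a coefficient of variation of 5.12%, Thy1 of 5.91% and Skap1 of 6.97%, and these lay in the lowest 0.237%, 0.645% and 1.45% of genes. Cd6 with 55.4% and Ubash3b with 50.2% were the most variable.

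The 2 control libraries differed from each other in a way that followed transcript length. Among the 14 members with an average effective length under 1500 bases, 9 were higher in eGFP control 3 than in eGFP control 6, with a median log2 ratio of 0.27 on the log2(CPM + 1) scale. Among 12 members of 1500 to 2500 bases 4 were higher, with a median of -0.38, and among 11 of 2500 bases or more 1 was higher, with a median of -0.94. All genes gave medians of 0.30, -0.47 and -1.08 in the same classes. As a description across genes, which are not independent and share the 2 libraries, Spearman's rho between length and this ratio was -0.53 over the 37 members and -0.49 over 9298 genes. Cd3d, of 954 bases, was at 0.85 and Cd2, of 994 bases, at 0.94, while Cd3e, of 901 bases, was at -0.67 and Thy1, of 630.2 bases, at -0.93. Cd8a was at 0.65 with 2176 bases. Log2 fold changes were also fitted with a trend with transcript length removed from every library. In NFAT5 against eGFP they were then -0.93 for Cd3g, -0.95 for Cd3d, -0.98 for Cd2, -0.66 for Cd247 and 0.04 for Cd3e. Cd8a was then at -0.98 in NFAT5 and -1.10 in CA-RIT NFAT1 against eGFP, larger in size than with the trend kept.

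**Figure D4:**
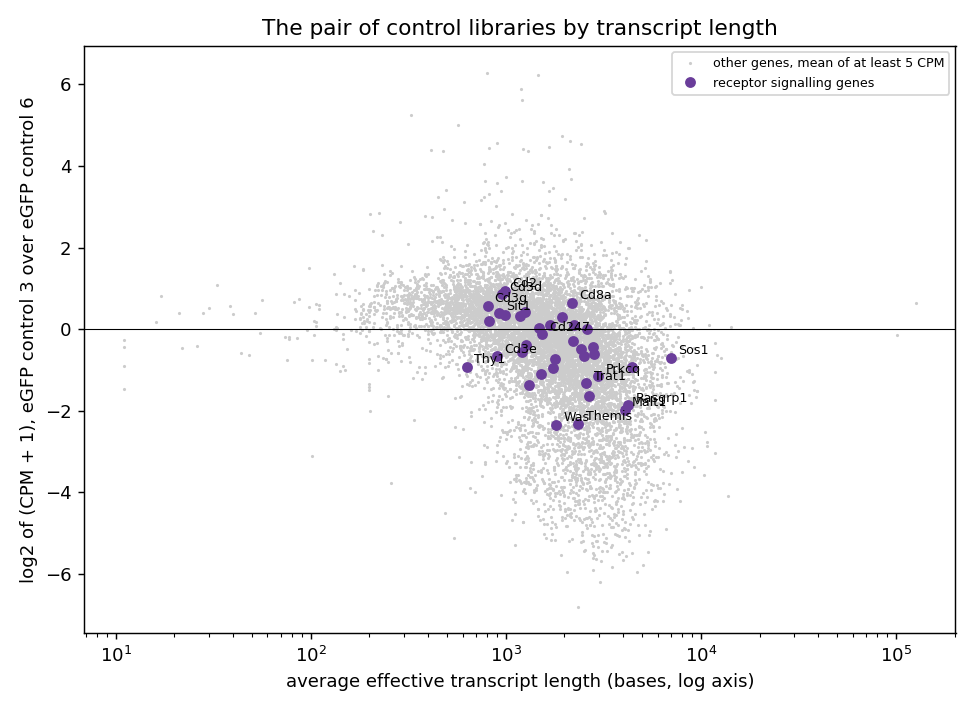
Log2 ratio of eGFP control 3 over eGFP control 6, on the log2(CPM + 1) scale, against average effective transcript length on a log axis; purple points are the 37 genes and grey points all other genes averaging 5 CPM or more. Short members such as Cd2 and Cd3d lie above 0, Cd3e and Thy1 below it, and long members such as Malt1 and Rasgrp1 lie near -2.

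The reads of a gene can come from transcripts that make no protein. For 22 members these made under 5% of reads on average, for 13 they made 5 to 50%, and for Cd8a and Ubash3a more than 50%. For Pag1 the share ran from 0 to 100.0% over the libraries. All are shares of Salmon's estimated counts, not of reads traced to 1 transcript. A single retained-intron transcript of Cd8a took 54.6 to 62.3% of its reads over the 8 libraries, and a processed transcript of Ubash3a 54.7 to 69.6%. The Cd8a share was 55.3 ± 0.650% in CA-RIT NFAT1 (SD, 3 libraries), 57.1 ± 2.19% in NFAT5 (SD, 3 libraries) and 62.3% and 55.9% in eGFP control 3 and 6. The highest library was eGFP control 3 and the lowest CA-RIT NFAT1 9. All reads of Cd8b1 were on its 1 protein-coding transcript.

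Beyond the 37 genes, 50 other genes of receptor signalling were tested, from the receptor's constant regions to calcium, Ras and PI3K enzymes. Of these, edgeR called 0 in NFAT5 against eGFP, and 1 on the higher and 3 on the lower side had an unadjusted p below 0.05 (8.00%, against 7.26% of all genes). Trbc2, a constant region of the receptor beta chain, had 19307, 17721 and 18848 CPM in CA-RIT NFAT1 2, 4 and 9, 17206, 16161 and 15593 CPM in NFAT5 1, 5 and 8, and 25613 and 22364 CPM in eGFP control 3 and 6. The 3 groups did not overlap for Trbc2. Its log2 fold change in NFAT5 against eGFP was -0.67 ± 0.19 (edgeR adjusted p = 0.654), -0.48 without eGFP control 3, and DESeq2 called it with an adjusted p of 0.0423. For CA-RIT NFAT1 it was -0.49 ± 0.19, with adjusted p against eGFP of 0.679 in edgeR and 0.314 in DESeq2. Slamf7, a receptor of the SLAM family, was at -0.73 ± 0.24 in NFAT5 and -0.51 ± 0.25 in CA-RIT NFAT1 against eGFP. Evl, an actin regulator, was at 0.77 ± 0.33 and Ppp3ca, a calcineurin subunit, at 0.84 ± 0.63 in NFAT5 against eGFP, and at 0.33 and 0.07 without eGFP control 3.

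In CA-RIT NFAT1 against eGFP 2 of the 50 on the higher and 1 on the lower side had an unadjusted p below 0.05 (6.00%, against 6.44% of all genes). Ptpn6, the phosphatase SHP-1 that counters Lck and ZAP-70, had 219, 284 and 257 CPM in CA-RIT NFAT1 2, 4 and 9, 144, 174 and 137 CPM in NFAT5 1, 5 and 8, and 168 and 149.6 CPM in eGFP control 3 and 6. All CA-RIT NFAT1 libraries lay above all 5 others. Its log2 fold change was 0.55 ± 0.23 against eGFP and 0.73 ± 0.20 against NFAT5, with edgeR adjusted p of 0.679 and 1, and it was 0.72 against eGFP without eGFP control 3. Ptpn6 had 659 CPM in CA-RIT NFAT1 10, the library rich in mast cell and macrophage RNA. The 15 macrophage and monocyte markers summed to 605 to 1958 CPM in CA-RIT NFAT1 2, 4 and 9 1016 to 1353 CPM in NFAT5, and 752 and 1211 CPM in eGFP control 3 and 6. Ly6c2, which CD8 T cells also express, made 1334, 691 and 355 CPM of the sums in CA-RIT NFAT1 2, 4 and 9 and was at 7.51 CPM in CA-RIT NFAT1 10. Their part in the result was not tested. Itpkb, which makes a calcium-signal regulator, was at 1.15 ± 0.49 in CA-RIT NFAT1 against eGFP and 0.64 without eGFP control 3. Between CA-RIT NFAT1 and NFAT5, Slamf6 was at 0.48 ± 0.23 and Pik3cd at -0.34 ± 0.50.

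Genes known to respond to receptor signalling, 25 in all, were read beside the pathway. This list was drawn up with earlier results of these data known, so the shares below are not independent of the values. None of the 25 was called by edgeR in NFAT5 against eGFP, with 5 higher and 3 lower at an unadjusted p below 0.05 (32.0%, against 7.26% of all genes). In CA-RIT NFAT1 against eGFP 2 of the 25, both higher, had such a p (8.00%, against 6.44% of all genes), and between CA-RIT NFAT1 and NFAT5 1 did (4.00%, against 1.13%). Nr4a3, an orphan nuclear receptor induced by NFAT, had 33.9, 45.4 and 39.0 CPM in CA-RIT NFAT1 2, 4 and 9, 38.9, 18.8 and 29.0 CPM in NFAT5 1, 5 and 8, and 8.68 and 7.73 CPM in eGFP control 3 and 6. Dusp5, a phosphatase that switches off ERK, had 378, 632 and 313 CPM in CA-RIT NFAT1, 477, 583 and 599 CPM in NFAT5, and 191 and 155 CPM in eGFP control 3 and 6. For both genes all 6 libraries of the NFAT vectors lay above both controls, and the controls stood close together. The log2 fold changes of Nr4a3 were 1.70 ± 0.40 in NFAT5 and 2.14 ± 0.41 in CA-RIT NFAT1 against eGFP, with adjusted p of 0.654 and 0.679 in edgeR and of 0.0118 and 2.22e-04 in DESeq2. Those of Dusp5 were 1.57 ± 0.35 and 1.23 ± 0.34, with DESeq2 adjusted p of 0.00922 and 0.115. Without eGFP control 3 they were 1.87 and 2.32 for Nr4a3 and 1.81 and 1.48 for Dusp5.

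DESeq2 also called Dusp2, another phosphatase of the ERK pathway, in NFAT5 against eGFP, at 2.03 ± 0.60 in edgeR with a DESeq2 adjusted p of 0.0436. Tnfrsf9, which encodes the costimulatory receptor 4-1BB, was at -1.85 ± 0.55 in NFAT5 against eGFP and -1.23 ± 0.55 in CA-RIT NFAT1 against eGFP, and at -0.98 and -0.36 without eGFP control 3. Fos, which pairs with Jun proteins to form AP-1, was at -0.93 ± 0.45 in CA-RIT NFAT1 against eGFP at -1.37 without eGFP control 3 and at -0.24 without eGFP control 6. Il2ra, the alpha chain of the interleukin-2 receptor, had 49.0, 47.4 and 86.3 CPM in CA-RIT NFAT1 2, 4 and 9 and 29.9, 20.8 and 25.8 CPM in NFAT5 1, 5 and 8. In eGFP control 3 and 6 it had 79.5 and 32.7 CPM. Its log2 fold change was -1.27 ± 0.45 in NFAT5 and -0.03 ± 0.45 in CA-RIT NFAT1 against eGFP. Without eGFP control 3 these were -0.39 and 0.86. The CA-RIT NFAT1 and NFAT5 libraries did not overlap, and the log2 fold change in CA-RIT NFAT1 against NFAT5 was 1.24 ± 0.41 (edgeR adjusted p = 1). Cd44 was at 0.59 ± 0.26, Junb at -0.60 ± 0.32 and Dusp2 at -0.86 ± 0.50 in the same comparison.

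The library CA-RIT NFAT1 10 held reads of only some of the 37 genes. Of the 37 genes, 10 were at 50% or more of the mean of CA-RIT NFAT1 2, 4 and 9, while 14 were below 1% and 7 of these had 0 reads, which allows up to 0.0923 CPM (3 counts, counting error only). Lck and Cd8a had 1 read each of 32.5 M, or 0.0308 CPM, and Cd5, Cd6, Prkcq, Skap1, Themis, Sit1 and Trat1 had 0. In the same library Lcp2 had 434 CPM, Lat 269 CPM, Grb2 245 CPM, Vav1 187 CPM and Bcl10 73.2 CPM, against means of 343, 431, 219.9, 189 and 69.0 CPM in CA-RIT NFAT1 2, 4 and 9.

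Of the 15 members that mast cells or macrophages are also known to express, 7 were at 50% or more of that mean, with a median of 46.0%. The lowest of the 15 were Malt1 at 1.15%, Sos1 at 4.18%, Was at 5.84% and Sla at 10.7%. Of the 22 taken as genes of T or NK cells, 3 were at 50% or more, with a median of 0.123%. These 3 were Txk, Sla2 and Ubash3a. The members were split into these lists with earlier results of these data known. The contrast between the lists is therefore a description and no independent result. Chains of 1 receptor did not go together there: Cd3g had 119 CPM and Cd247 119.6 CPM, while Cd3e had 5.91 CPM and Cd3d 0.893 CPM. As percentages of the mean of the other 3 libraries these were 16.0% and 27.1%, against 0.614% and 0.148%. Mast cell genes were high in it, with 1859 CPM of Cpa3 and 505 CPM of Kit, as were the macrophage genes Chil3 with 2997 CPM and Cd68 with 362 CPM. Of the macrophage and monocyte markers, Itgam with 27.9 CPM and Ccr2 with 112 CPM lay within the range of the 8 libraries. Ly6c2 with 7.51 CPM lay below that range, and the other markers of that list lay above it. Among defining mast cell genes, Fcer1a, Ms4a2, Tpsb2 and Hdc were at 0 reads.

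With this library and eGFP control 7 in the fit, the median log2 fold change of the members in CA-RIT NFAT1 against NFAT5 was -0.25, with Cd3e at -0.24, Cd3d at -0.21 and Lck at -0.47, and 0 members were called. In eGFP control 7, 9 of the 37 genes had reads, with 3 on Lck, 2 on Cd3d and 1 on each of 7 others. There 1 read corresponds to 19.6 CPM, and a count of 0 allows a level of up to 58.7 CPM (3 counts, counting error only).

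**Figure D5:**
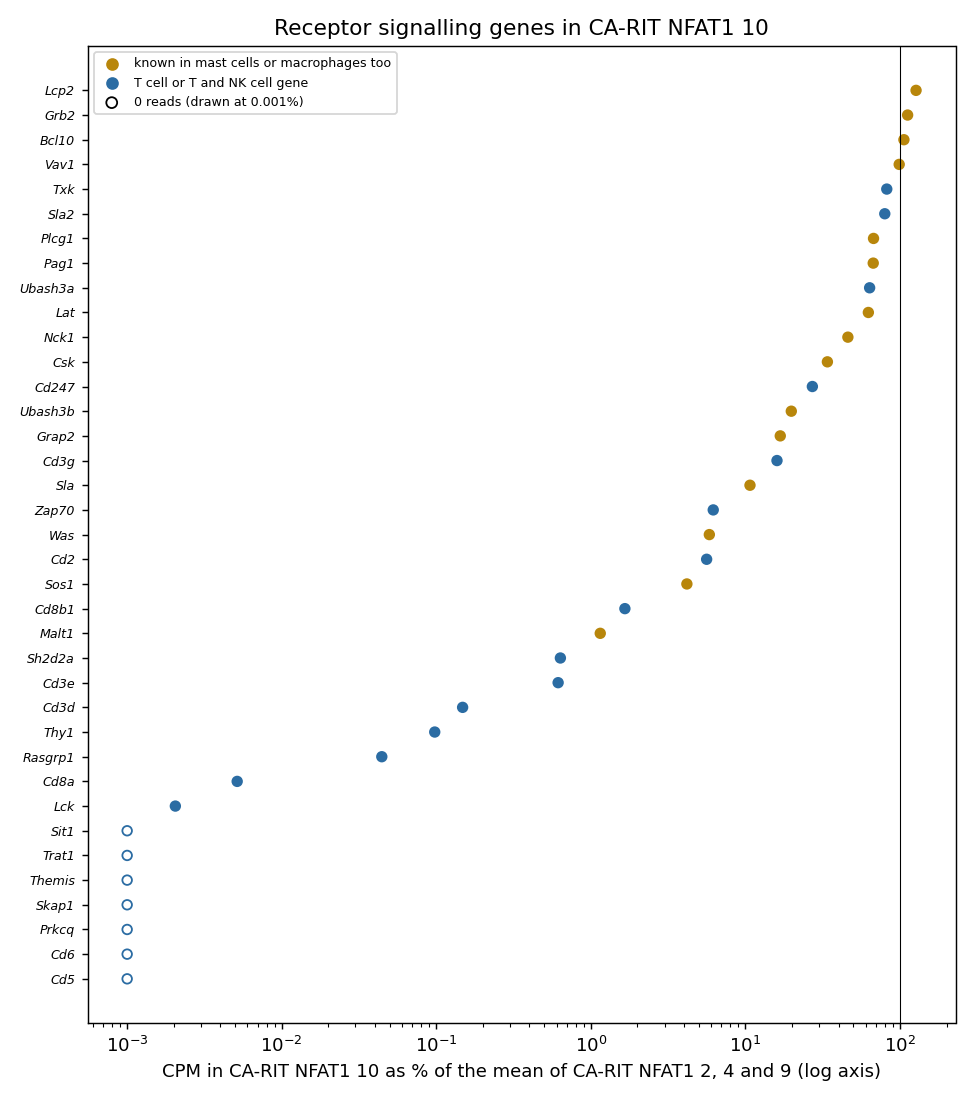
CPM of each of the 37 genes in CA-RIT NFAT1 10 as a percentage of their mean in CA-RIT NFAT1 2, 4 and 9. The axis is a log axis, with the line at 100%. Gold points are genes listed as also known in mast cells or macrophages. Blue points are genes taken as those of T or T and NK cells, and open circles genes with 0 reads. Lcp2, Grb2, Bcl10 and Vav1 lie near 100%, and Lck and Cd8a below 0.01%.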

How the data were processed

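RNA from sorted tumour-infiltrating CD8 T cells was sequenced in 10 libraries of 3 vector groups. Tumours were digested with enzymes, lymphocytes enriched on Ficoll and libraries made with a Clontech kit, per the labels' protocols. Library strand, trimming and options: not given in the sources used here. Salmon 0.14.1 made the transcript values and the mouse builds GRCm38.p6 and mm10 are named, per the submitters' processing notes. The deposited estimated counts, with fractions, are per transcript, per the file headers. The deposited TPM values, per the file headers, were summed per gene for levels compared between genes and weighted the effective lengths, an other kind of quantity that the authors deposited beside them.

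Of 140919 transcripts, 139966 were matched to GENCODE M21, a release inferred because 99.9% of lengths were identical; the 953 unmatched held at most 0.292% of a library's reads. Estimated counts were summed to 54337 genes and rounded. CPM divide them by all matched reads of the library, and ratios of single libraries use a pseudocount of 1 CPM. The libraries held 18.8 to 36.6 M reads, except eGFP control 7 with 0.0511 M, and intervals and floors of 3 counts cover counting error only.

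Tests used edgeR 4.0.16 under R 4.3.3 (filterByExpr, TMM, quasi-likelihood, Benjamini-Hochberg adjustment at 0.05) over 14473 genes, 8 libraries and 3 groups in 1 fit, in which the biological coefficient of variation was 0.725. Fold changes are after TMM scaling and so differ somewhat from ratios of CPM. Standard errors were derived from each fold change and its F statistic. Alternatives were DESeq2 1.42.0, limma 3.58.1 voom with quality weights, scaling by RLE or by the upper quartile, no or a stricter low-count filter (10 reads in 3 libraries and a mean of 5 CPM), average transcript length offsets, all 10 libraries, only the compared groups and each library left out. Removal of a lowess trend with transcript length (span 0.3) was added after seeing the data. The test was checked on simulated data. With every gene given the biological coefficient of variation of the fit, 0.725, it missed nearly all of the differences put in, also at the largest size. At a smaller spread it found most of the larger ones. A count of 0 therefore does not show that genes did not differ. Members had a smaller median standard error than all genes (0.29 against 0.61 in NFAT5 against eGFP). How many differences would be missed among them was not tested.

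Members, lists and the choice of libraries were made with earlier results of these data known. Named in each comparison are the receptor chains, the co-receptor, Lck, Zap70 and the 4 members of smallest p in each direction, and from each of the other lists the 2 of smallest p in each direction; other members are given by range, and Dusp2 in NFAT5 was named after its value was seen, as were other members with a pattern by library. Promoter windows are from RefSeq (GRCm38.p6). The labels give no batch. A gene that the naming rule selected is not reported here.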

Additional observations from a re-analysis of the deposited data

Results flagged for a closer look

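In a group of 4 libraries, a value was picked out where its gap to the nearest other exceeded Dixon's 95% limit as a share of the range, which chance gives in about 1 in 20 groups. Only CA-RIT NFAT1 has 4 libraries. This held for 17 of 37 members, 16 of them because CA-RIT NFAT1 10 lay below CA-RIT NFAT1 2, 4 and 9. The share of all genes picked out in this way is not given here. CA-RIT NFAT1 10 had already been left out for its low CD8 T cell markers, among them Cd3e, Cd8a and Cd8b1. Its low members are therefore no separate result. In that library Cd5, Prkcq, Skap1, Themis and Sit1 were at 0 CPM. Lck and Cd8a were at 0.0308 CPM, Thy1 at 0.185 CPM and Cd3d at 0.893 CPM. Was was at 4.00 CPM, Sh2d2a at 5.45 CPM and Cd3e at 5.91 CPM. Zap70 was at 17.1 CPM, Cd8b1 at 17.9 CPM, Cd2 at 32.4 CPM and Sla at 36.6 CPM. The exception was Grb2, where CA-RIT NFAT1 9 with 187 CPM lay below the others, among them CA-RIT NFAT1 10 with 245 CPM.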

How the results depend on the processing

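The number of members past the threshold was 0 in 55 of 57 pairs of setting and comparison. The exceptions were both fits with eGFP control 3 as the only control. Leaving out 1 library at a time gave 0 to 3294 genes, 0 to 7 members and a member median of -0.07 to 0.27 in NFAT5 against eGFP, 0 to 3410 genes, 0 to 8 members and a median of -0.10 to 0.16 in CA-RIT NFAT1 against eGFP, and 0 genes, 0 members and a median of -0.06 to 0.14 in CA-RIT NFAT1 against NFAT5. DESeq2 called 104, 60 and 1 genes in these comparisons, and removal of a length trend 1 gene in CA-RIT NFAT1 against eGFP.

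In NFAT5 against eGFP the member median was 0.28 with 10 libraries, 0.16 with length offsets and -0.17 with the length trend removed. It was -0.33 with the trend removed in CA-RIT NFAT1 against eGFP and -0.25 with 10 libraries in CA-RIT NFAT1 against NFAT5. With the trend removed the median of all genes against eGFP was -0.09 in NFAT5 and -0.10 in CA-RIT NFAT1.

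Of 738 alternative values of named members, 11 were counted as stronger and 25 reversed. In NFAT5 against eGFP with 10 libraries Cd3e was at 0.32, Cd8b1 at 0.30 and Lck at 0.20, and Cd3e was at 0.03 in voom and 0.04 with the trend removed. With 1 library left out Cd3e ran from -0.26 to 0.27, Cd8b1 from -0.38 to 0.18 and Zap70 from -0.11 to 0.70. In CA-RIT NFAT1 against eGFP Sla was at -0.06 with the trend removed, and with 1 library left out Cd3e ran from -0.09 to 0.44 and Zap70 from -0.06 to 0.76. In CA-RIT NFAT1 against NFAT5 with 10 libraries Cd3e was at -0.24, Cd3d at -0.21, Cd247 at -0.20 and Zap70 at -0.34; Zap70 was at 0.00 with the trend removed, and with 1 library left out Zap70 ran from -0.02 to 0.19, Txk from -0.05 to 0.53 and Lck from -0.12 to 0.03. The cause was not tested.

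No paired analysis was possible because the labels name no pairing of libraries between groups. Depth limited Trat1, with 1 to 63 reads in each of the 8 libraries, and every member in eGFP control 7.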
